A study of Mus musculus with 12 samples.

Results

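The platelet-derived growth factor (PDGF) family and 4 transcription factors of the oligodendrocyte lineage were followed in the mouse spinal cord after a contusion injury. The 10 genes were the ligands Pdgfa, Pdgfb, Pdgfc and Pdgfd, the receptors Pdgfra and Pdgfrb, and the lineage factors Olig1, Olig2, Sox10 and Nkx2-2, out of 18194 genes that had a probe of their own on the array. They were chosen by name as members of the pathway and of the lineage, with earlier results of these data known. Together they had 20 probes among 45101, and each gene is given by its probe with the highest mean signal over all arrays.

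PDGF ligands act as dimers on 2 receptor tyrosine kinases. PDGF-A and PDGF-C signal mainly through PDGFRα and PDGF-D mainly through PDGFRβ, whereas PDGF-B binds both receptors. In the central nervous system PDGFRα marks oligodendrocyte precursor cells, for which PDGF-A is a mitogen and survival factor, and PDGFRβ marks pericytes and perivascular fibroblasts, which contribute to the scar after a cord lesion. Olig1 and Olig2 are basic helix-loop-helix factors, Sox10 is an HMG-box factor and Nkx2-2 is a homeodomain factor. Olig2 specifies the lineage, Sox10 and Olig1 are needed for myelin gene expression, and Nkx2-2 acts in precursors as they begin to differentiate.

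Total RNA came from spinal cord segments at the Th9 level of female C57BL/6J mice, 3 per group and 1 array per mouse. Aged injured and young injured mice had received a contusion at Th9 and were taken 9 days later, and aged intact and young intact mice, called normal in the labels, had not been injured. Aged mice were 15 to 18 months old and young mice 2 to 3 months old. All mice were perfused with heparinized saline, which removes blood from the vessels, and each sample was a whole segment, so that lesion, spared tissue and every cell type in them were measured together.

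Signals are MAS5 values of an Affymetrix mouse genome array, scaled to the same trimmed mean of 100 on every array. A signal of 50 was the lower cutoff in the study's methods, and between 35.05% and 36.7% of probes exceeded it on each array. Differences are log2 differences fitted by limma over the 10511 genes whose mean exceeded 50 in at least 1 group, and a gene was called where its p-value, adjusted over all 10511 genes by the Benjamini-Hochberg method, was under 0.05. All 10 genes passed that filter. Fold changes of the 10 genes come from the fit and those of other genes are ratios of group means, and where the lower mean was under 50 it was set to 50 and the fold is given as a bound. The 8 neuron markers summed to 1534 to 9751.3 in aged injured and 6845.9 to 10402.3 in young injured cords, against 17930.4 to 18861.4 in aged intact and 17949.1 to 18482.4 in young intact cords, and all 10 macrophage and microglia markers were higher in injured cords at both ages. Aged injured replicate 1 stood apart from its group, with the lowest sums of neuron, astrocyte, myelin and precursor markers among all 12 arrays, and values without it are given beside the results that it changed most.

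Promoter sequences are shown for 3 genes that moved, Pdgfra, Pdgfd and Olig2. Each is the RefSeq window of build GRCm38.p6 from 250 bases before to 50 bases after a transcription start, read 5′ to 3′ along the gene, and lies on the plus strand. Such windows were found for 6 of the 10 genes. Capitals mark matches, on either strand, to the GC box GGGCGG, the CCAAT box CCAAT, the AP-1 site TGANTCA, the E box CANNTG, the TATA box TATAAA and the Sox core AACAAT, and no match overlapped another.
Pdgfra, chr5:75152001-75152300: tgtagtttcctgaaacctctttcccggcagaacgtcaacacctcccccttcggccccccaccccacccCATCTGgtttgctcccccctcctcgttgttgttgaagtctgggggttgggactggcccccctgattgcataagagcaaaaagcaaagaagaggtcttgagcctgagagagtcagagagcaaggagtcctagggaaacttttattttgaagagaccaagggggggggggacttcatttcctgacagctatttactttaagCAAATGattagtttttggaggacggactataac
Pdgfd, chr9:6168236-6168535: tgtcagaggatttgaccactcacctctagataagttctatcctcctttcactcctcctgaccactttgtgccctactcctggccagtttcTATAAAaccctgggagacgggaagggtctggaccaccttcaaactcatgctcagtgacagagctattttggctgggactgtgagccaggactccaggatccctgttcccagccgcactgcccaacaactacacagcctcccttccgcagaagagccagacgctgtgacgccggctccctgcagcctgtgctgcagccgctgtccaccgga
Olig2, chr16:91225300-91225599: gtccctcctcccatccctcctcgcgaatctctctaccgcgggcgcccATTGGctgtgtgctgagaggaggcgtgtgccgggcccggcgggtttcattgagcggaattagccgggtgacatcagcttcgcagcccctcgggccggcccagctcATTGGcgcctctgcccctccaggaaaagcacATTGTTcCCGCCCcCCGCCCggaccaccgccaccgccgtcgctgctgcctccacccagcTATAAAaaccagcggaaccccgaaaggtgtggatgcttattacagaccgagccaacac
The Olig2 window held 2 GC boxes, 2 CCAAT boxes, 1 TATA box and 1 Sox core, the Pdgfd window 1 TATA box, and the Pdgfra window 2 E boxes. Among 32851 RefSeq windows of the same length, the GC box occurred in 35.7%, the CCAAT box in 37.4%, the AP-1 site in 7.81%, the E box in 72.3%, the TATA box in 13.6% and the Sox core in 10.7%. The window of Pdgfc held none of these motifs. These matches describe the letters of the windows and were not tested against the signals.

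After injury, 4 of the 10 genes were higher at both ages, namely both receptors and the ligands Pdgfb and Pdgfc. Pdgfd was lower at both ages, Olig1 was called lower in aged mice and Olig2 in young mice, and Pdgfa, Sox10 and Nkx2-2 were not called. Thus 6 genes were called in each comparison, 4 higher and 2 lower. Of all genes tested, 35.6% were called higher and 39.9% lower in aged injured over aged intact cords, and 33.9% were called higher and 34.1% lower in young injured over young intact cords, so that the number of calls among the 10 genes was close to that of genes at large. All 6 injured arrays were above all 6 intact arrays for 4 of the 10 genes and below them for 1, Pdgfd, where 29.6% of all genes tested were so separated upwards and 32.6% downwards. In bulk tissue fewer cells of a type and less RNA per cell cannot be told apart.

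**Figure D1:**
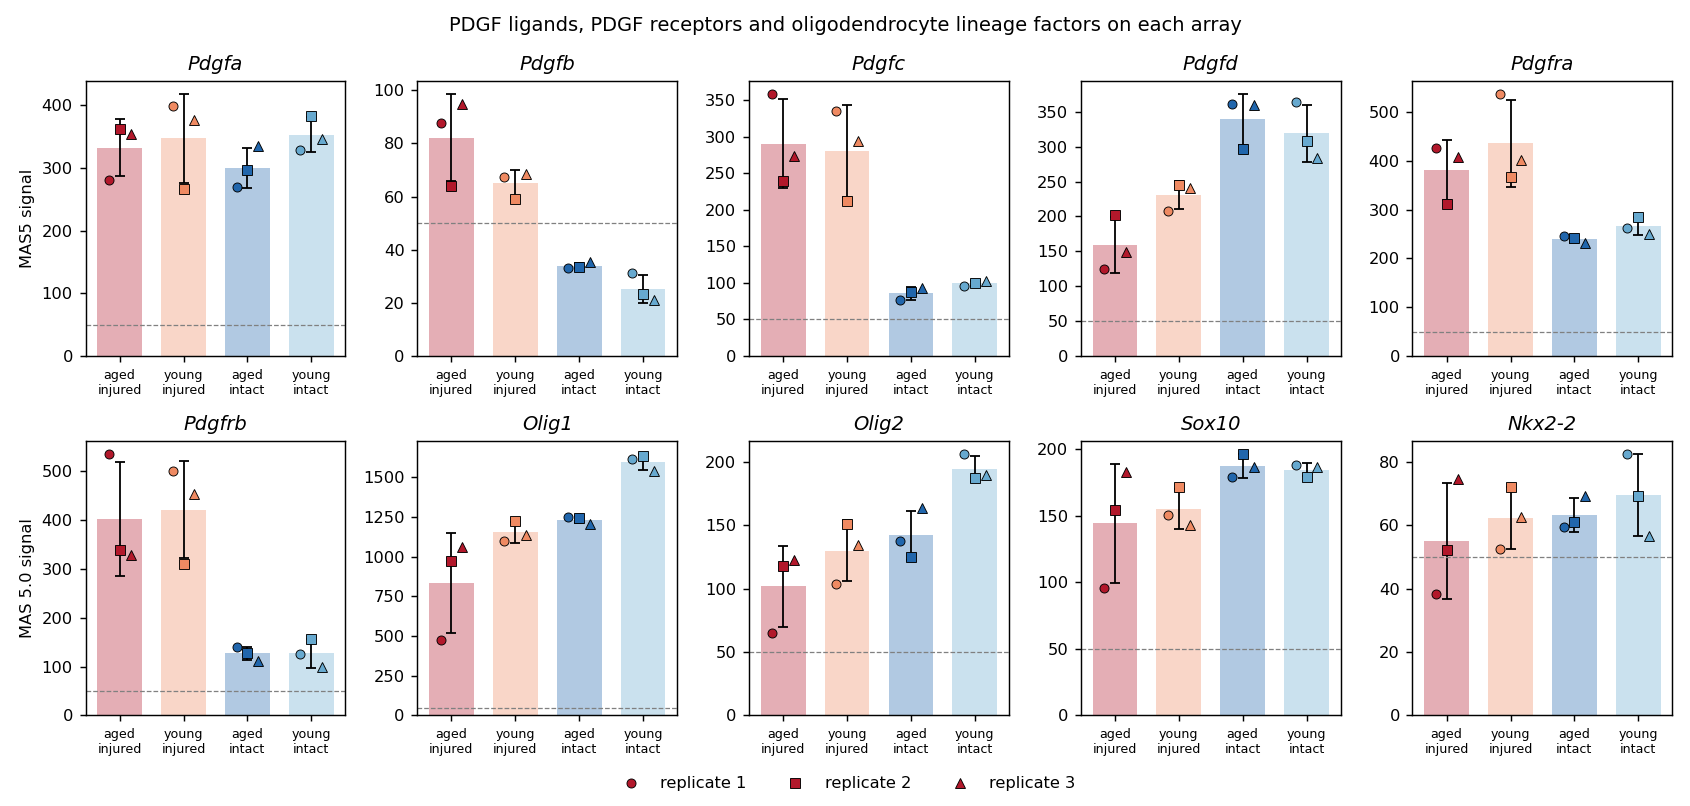
MAS5 signal of the 10 genes in aged injured, young injured, aged intact and young intact cords, from left to right. Bars are means with SD (n = 3 mice per group), symbols are single arrays and the dashed line is the cutoff of 50. Pdgfb, Pdgfc, Pdgfra and Pdgfrb were higher on all 6 injured arrays than on any intact array, and Pdgfd was lower on all 6.

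Pdgfa, a ligand made by astrocytes and neurons that drives division of oligodendrocyte precursors, lies on chromosome 5 at 138976014 to 139000792 (GRCm38.p6). Its signals were 281.0, 362.5 and 355.1 in aged injured and 398.5, 266.5 and 377.0 in young injured cords, against 270.1, 296.3 and 334.6 in aged intact and 329.6, 384.0 and 347.0 in young intact cords. All 4 groups overlapped, and injured arrays were both the highest and the lowest of the 12. The log2 difference with injury was 0.14 (95% interval −0.20 to 0.49) in aged and −0.04 (−0.39 to 0.30) in young mice, which leaves room for changes of up to the interval's bounds. The other Pdgfa probe gave signals of 173.1 to 199.0 in aged injured against 207.1 to 224.7 in aged intact cords, a log2 difference of −0.23 that was called lower when the 18615 probes over the cutoff were fitted (limma, adjusted p = 0.0248), so that the 2 probes differed in sign in aged mice.

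Pdgfb, the ligand by which endothelial cells recruit pericytes and which platelets and macrophages also release, lies on chromosome 15 at 79995865 to 80024614. It measured 87.9, 63.8 and 95 in aged injured and 67.5, 59.2 and 68.4 in young injured cords, against 33.2, 33.6 and 35.2 in aged intact and 31.2, 23.5 and 21.2 in young intact cords. Every injured array was above 50 and every intact array below it. With both intact means under the cutoff, Pdgfb was at least 1.64-fold higher in aged injured cords (limma, adjusted p = 9.48e-05) and at least 1.30-fold higher in young injured cords (adjusted p = 7.14e-05). The other Pdgfb probe stayed under 50 on every array. Fitted with all 45101 probes, its log2 difference was 1.04 in aged (limma, adjusted p = 0.00411) and 0.40 in young mice (0.244, not called). Macrophage and microglia markers moved with Pdgfb, their 10 genes summing to 29386.2 to 34219.6 in aged injured and 24357.6 to 31503.9 in young injured cords, against 5225.8 to 5454.5 in aged intact and 2829.2 to 3153.2 in young intact cords. Of 4 platelet markers Pf4 and Itga2b were called higher at both ages, while Ppbp and Gp9 had no group mean over 50. Itga2b was itself close to the cutoff of 50, at 43.3 to 53.7 in aged injured and 47.5 to 56.2 in young injured cords. Of 5 endothelial markers tested, 2 were higher and 1 lower in aged and 1 was higher in young injured cords, and without aged injured replicate 1 the aged count was 1 higher and none lower. The part of these cells in the Pdgfb signal was not tested.

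Pdgfc, a ligand secreted with a CUB domain that tissue plasminogen activator cleaves off, lies on chromosome 3 at 81036416 to 81214040. Signals of 358.5, 240.2 and 273.5 were found in aged injured and 335.3, 211.5 and 294.3 in young injured cords, against 75.9, 87.9 and 93.3 in aged intact and 96.2, 99.7 and 102.0 in young intact cords. All injured arrays were well above all intact arrays, and the ages overlapped after injury. Pdgfc was 3.36-fold higher in aged injured cords (log2 difference 1.75 ± 0.18, SE, limma adjusted p = 7.86e-06) and 2.77-fold higher in young injured cords (1.47 ± 0.18, adjusted p = 3.86e-05). Its other probe was higher as well, at 146.4 to 241.0 on injured arrays against 32.5 to 67.8 on intact arrays.

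Pdgfd, the other CUB-domain ligand, which urokinase can activate, lies on chromosome 9 at 6168363 to 6534284 and was lower after injury at both ages. It gave 123.9, 202.5 and 149.3 in aged injured and 208.0, 244.8 and 240.5 in young injured cords, against 360.5, 297.1 and 359.4 in aged intact and 364.2, 308.6 and 284.3 in young intact cords. The aged injured arrays were the lowest, the young injured arrays came next and all intact arrays were above both, with no overlap between these levels. Pdgfd was 2.17-fold lower in aged injured cords (log2 difference −1.12 ± 0.17, limma adjusted p = 1.16e-04) and 1.38-fold lower in young injured cords (−0.46 ± 0.17, adjusted p = 0.0290). A dimmer Pdgfd probe kept the order of the group means, at 31.6 to 39.4 in aged injured and 46.6 to 61.8 in young injured cords, against 67.2 to 85.6 in aged intact and 60.4 to 86.8 in young intact cords, and a further one stayed below 50 on every array. The young call was lost without young injured replicate 1 (adjusted p = 0.1002) or replicate 3 (0.05004) and without young intact replicate 1 (0.110) or replicate 2 (0.0543), and when all probes were averaged (0.394), with the same direction each time.

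Pdgfra, the receptor on oligodendrocyte precursors and some fibroblasts, lies on chromosome 5 at 75151322 to 75198206. Its signals were 426.3, 311.7 and 407.8 in aged injured and 537.2, 368.0 and 402.9 in young injured cords, against 245.1, 242.9 and 230.7 in aged intact and 263.0, 286.0 and 250.5 in young intact cords. All 6 injured arrays were above all 6 intact arrays, and the injured arrays spread more widely. The receptor was 1.58-fold higher in aged injured (log2 difference 0.66 ± 0.15, limma adjusted p = 0.00167) and 1.62-fold higher in young injured cords (0.69 ± 0.15, adjusted p = 0.00164). Its other 2 probes had no signal over 50. Fitted with all 45101 probes, 1 had log2 differences with injury of 0.91 in aged (limma, adjusted p = 0.0146) and 0.80 in young mice (0.0333). The remaining probe had 0.87 in aged (0.00317) and 0.38 in young mice (0.164, not called). Between aged injured and young injured cords that probe had 0.39 (0.345, not called), opposite in sign to the −0.19 of the probe used.

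Pdgfrb, the receptor of pericytes, vascular smooth muscle and perivascular fibroblasts, lies on chromosome 18 at 61045127 to 61085067. It measured 535.9, 338.6 and 329.4 in aged injured and 500.4, 309.9 and 453.5 in young injured cords, against 140.0, 128.8 and 112.0 in aged intact and 125.6, 157.6 and 98.6 in young intact cords. Injured and intact arrays were far apart, and within each condition the ages overlapped. Pdgfrb was 3.09-fold higher in aged injured (log2 difference 1.63 ± 0.24, limma adjusted p = 9.75e-05) and 3.30-fold higher in young injured cords (1.72 ± 0.24, adjusted p = 9.47e-05), and its dimmer probe, with every group mean under 50, was also higher on all injured arrays than on any intact array. Fibroblast markers moved with both receptors: of 11 tested, 10 were higher and Thy1, which neurons also express, was lower at each age, and their sum was 14144.8 to 18879.6 in aged injured and 14619.9 to 20222 in young injured cords, against 4338 to 5864.3 in aged intact and 5911.8 to 6246 in young intact cords. Of 13 mural cell markers, 7 were tested and 4 were higher at each age, where 35.6% of all genes were higher in aged and 33.9% in young injured cords. The 7 summed to 2049 to 2737.5 in aged injured and 2057.1 to 2612.9 in young injured cords, against 1459.4 to 1729.5 in aged intact and 1383 to 1524.7 in young intact cords. Among the mural markers the pericyte gene Rgs5 was not called at either age (log2 difference 0.11 in aged and 0.10 in young mice), and the pericyte genes Kcnj8, Abcc9 and Higd1b had no group mean over 50. How much of the receptor signal came from these cells was not tested.

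Olig1, which oligodendrocytes need for myelin repair, lies on chromosome 16 at 91269769 to 91271939, and Olig2 lies 41.1 kb from it at 91225550 to 91228677. Olig1 signals were 472.8, 968.8 and 1061.0 in aged injured and 1096.9, 1224.7 and 1137.4 in young injured cords, against 1249.2, 1240.9 and 1206.1 in aged intact and 1613.5, 1635.1 and 1536.8 in young intact cords. At each age all injured arrays were below all intact ones, and within each condition all aged arrays were below all young ones. Young injured and aged intact cords overlapped. Olig1 was 1.57-fold lower in aged injured cords (log2 difference −0.65 ± 0.23, limma adjusted p = 0.0240) and its log2 difference in young mice was −0.47 ± 0.23 (adjusted p = 0.0910, not called).

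Aged injured replicate 1 set much of the spread of Olig1. Without it the log2 difference in aged mice was −0.28 (limma, adjusted p = 0.00224), and that in young mice, at an unchanged −0.47, was called (adjusted p = 1.76e-05). The young difference was also called when only the young arrays were fitted (adjusted p = 1.83e-04), whereas the aged one was not called when only the aged arrays were fitted (0.0909), or without aged intact replicate 1 (0.0565) or replicate 2 (0.0548).

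Olig2, the factor that specifies oligodendrocyte precursors and motor neurons, gave 64.8, 118.2 and 122.6 in aged injured and 104.1, 151.5 and 134.4 in young injured cords, against 137.5, 125.1 and 163.6 in aged intact and 206.6, 187.7 and 190.1 in young intact cords. The young intact arrays were above all others, and at each age injured and intact arrays did not overlap. In young mice Olig2 was 1.52-fold lower after injury (log2 difference −0.60 ± 0.23, limma adjusted p = 0.0347), and in aged mice the log2 difference was −0.53 ± 0.23 (adjusted p = 0.0521, not called), or −0.23 without aged injured replicate 1. Neither call was firm. The young one was lost on leaving out young injured replicate 1 (limma, adjusted p = 0.134) or replicate 3 (0.0611) or any young intact array (0.0628 to 0.0917). It was kept without aged injured replicate 1 (0.00146) and with only the young arrays fitted (0.00322). The aged one was gained without aged injured replicate 2 (0.0285) or replicate 3 (0.0245) or young injured replicate 1 (0.0478). It was also gained with log2(signal + 16) (0.0484), quantile normalization (0.0476) and a replicate block (0.0373). With only the aged arrays fitted (0.114) or without aged injured replicate 1 (0.182) it was not called.

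Sox10, which directly activates myelin genes, lies on chromosome 15 at 79154913 to 79164490. It measured 95.5, 154.7 and 182.7 in aged injured and 150.3, 172.0 and 143.3 in young injured cords, against 179.0, 196.7 and 187.0 in aged intact and 188.3, 179.4 and 186.7 in young intact cords. Intact cords of both ages lay within a narrow range, the young injured arrays were all below it, and aged injured replicate 3 fell inside it. The log2 differences with injury, −0.43 (95% interval −0.84 to −0.02) in aged and −0.26 (−0.67 to 0.16) in young mice, were not called (limma, adjusted p = 0.0566 and 0.244). The aged difference was called without aged injured replicate 2 (adjusted p = 0.0480) or replicate 3 (0.00762), and the young one without aged injured replicate 1 (0.0224). Leaving out aged injured replicate 1 brought the aged difference to −0.16 (adjusted p = 0.179). A dimmer Sox10 probe, with both aged means under 50, had log2 differences of −0.009 in aged and −0.14 in young mice, and neither was called.

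Nkx2-2, found on chromosome 2 at 147176485 to 147195434, was the dimmest of the lineage factors. Its signals were 38.4, 52.1 and 74.6 in aged injured and 52.4, 72.0 and 62.4 in young injured cords, against 59.3, 60.9 and 69.3 in aged intact and 82.5, 69.2 and 56.6 in young intact cords. The 4 groups overlapped, and many arrays were close to the cutoff of 50. The log2 differences with injury were −0.25 (95% interval −0.75 to 0.25) in aged and −0.15 (−0.65 to 0.35) in young mice, and neither was called. The aged difference was −0.02 without aged injured replicate 1 (limma, adjusted p = 0.949), and without aged injured replicate 3 it was −0.49 and was called (adjusted p = 0.0482).

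**Figure D2:**
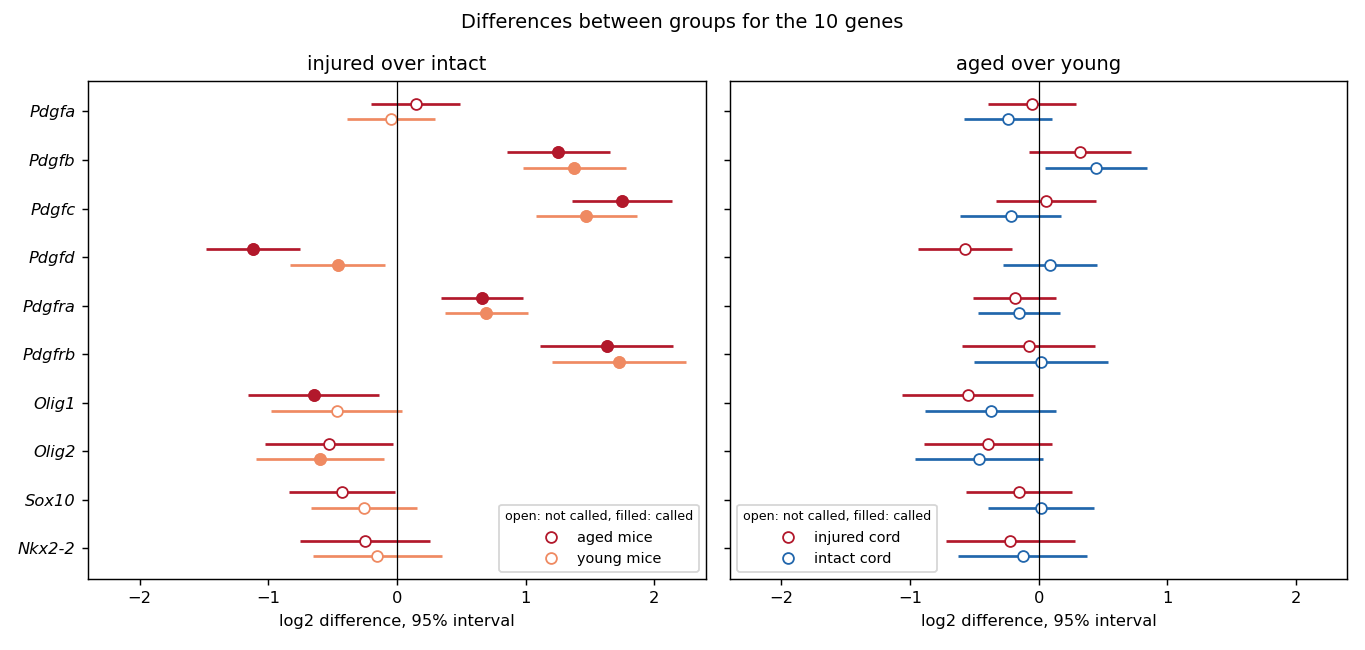
Log2 differences of the 10 genes with 95% intervals from limma, injured over intact (left panel, aged and young mice) and aged over young (right panel, injured and intact cords). Filled points were called, which was so for 6 genes in each injury comparison and for none in the age comparisons. For Pdgfb the fitted value is drawn although its intact means were under 50.

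More oligodendrocyte and myelin markers were called lower than higher at each age, in young mice at a share close to that of all genes. Of 14 tested, 10 were lower in aged injured cords, where 39.9% of all genes were, and 5 were lower and 1, Cldn11, was higher in young injured cords, where 34.1% of all genes were lower, with median log2 differences of −0.56 and −0.36 against −0.04 and 0.00 over all genes tested. Gpr37, a receptor of mature oligodendrocytes, averaged 297.9 in aged injured and 430.9 in young injured cords, against 914.5 in aged intact and 925.3 in young intact cords. Mbp and Cnp, 2 major myelin genes, were not called at either age. Without aged injured replicate 1 the counts were 7 lower and 1 higher in aged and 9 lower and 1 higher in young mice. The sum of the 14 genes was 19828.3 to 28889.4 in aged injured and 31438.7 to 33224.6 in young injured cords, against 30928 to 32683.7 in aged intact and 35838 to 38473.6 in young intact cords. The part of oligodendrocyte number in the Olig1, Olig2 and Sox10 signals was not tested.

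Precursor genes went both ways. Of 13 tested, 6 were higher and 4 lower in aged injured cords, where 35.6% of all genes were higher and 39.9% lower. In young injured cords 4 were higher and 2 lower, where 33.9% of all genes were higher and 34.1% lower. The median log2 differences were 0.29 and 0.00. The matrix proteoglycan gene Vcan, which astrocytes and fibroblasts also express, was 4.06-fold higher in aged and 3.05-fold higher in young injured cords (limma, adjusted p = 4.00e-08 and 2.12e-07). Cspg4, which encodes the NG2 proteoglycan of precursors and pericytes, was at least 1.63-fold and at least 1.38-fold higher, and the matrix gene Matn4 at least 1.16-fold and at least 1.52-fold higher. Lower in both were the cell adhesion gene Pcdh15, by at least 1.13-fold and at least 1.07-fold, and Bcas1, a gene of early myelinating oligodendrocytes (log2 differences −0.45 and −0.34). Without aged injured replicate 1 the counts were 7 higher and 3 lower in aged and 6 higher and 5 lower in young mice.

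Gpr17, a receptor of precursors that have committed to differentiate, was the only precursor gene called between aged and young intact cords. Its signals were 143.8, 242.7 and 297.7 in aged injured and 231.1, 292.5 and 281.6 in young injured cords, against 84.9, 88.4 and 94.3 in aged intact and 190.5, 244.8 and 223.2 in young intact cords. The aged intact arrays were below all the others. Gpr17 was 2.46-fold lower in aged intact than in young intact cords (log2 difference −1.29 ± 0.22, limma adjusted p = 0.0208), and 2.56-fold higher in aged injured than in aged intact cords (1.29 ± 0.22, adjusted p = 2.84e-04). In young mice its log2 difference with injury was 0.29 ± 0.22 (adjusted p = 0.257), and the test of whether the injury difference depended on age did not pass (log2 1.00 ± 0.31, adjusted p = 0.165).

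Other transcription factors of the lineage were mixed as well. Of 14 tested, 4 were higher and 2 lower in aged injured cords and 5 were higher in young injured cords, and without aged injured replicate 1 these counts were 7 higher and 1 lower in aged and 7 higher in young mice. Sox4, a factor of immature neural cells, was higher at both ages (log2 differences 1.68 and 1.41), as were Zeb2 (0.96 and 0.67) and Tcf7l2, a Wnt effector that oligodendrocytes turn on as they differentiate, which was at least 2.07-fold higher in aged and at least 1.94-fold higher in young injured cords. Sox8, a close relative of Sox10, was lower in aged injured cords (−0.67, limma adjusted p = 0.0312). The myelin regulatory factor Myrf was not called (0.30 and 0.29).

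Genes that process PDGF or assist its receptors were higher after injury. Of 7 tested, 6 were higher at both ages, where 35.6% of all genes were higher in aged and 33.9% in young injured cords. The median log2 differences were 1.81 in aged and 1.15 in young mice. Cspg4 is counted here and also among the precursor genes. Plau, encoding urokinase, measured 465.5, 260.7 and 288.3 in aged injured and 89.9, 70.4 and 113.5 in young injured cords, against 8.1, 12.4 and 10.2 in aged intact and 9.7, 8.4 and 6.2 in young intact cords. It was thus near the bottom of the scale in intact cords and above 50 on every injured array, and it was at least 6.76-fold higher in aged and at least 1.83-fold higher in young injured cords. Nrp1, a coreceptor, was 4.97-fold and 3.82-fold higher, Plat, encoding tissue plasminogen activator, had log2 differences of 0.90 and 0.76, and Lrp1, an endocytic receptor that associates with PDGFRβ, of 1.81 and 1.15. Pcsk5, a proprotein convertase, was not called with injury.

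Receptor signalling genes showed no common direction. Of 21 tested, 9 were higher and 4 lower in aged injured cords, where 35.6% of all genes were higher and 39.9% lower. In young injured cords 8 were higher and 3 lower, where 33.9% of all genes were higher and 34.1% lower. The median log2 differences were 0.07 and 0.20. Higher at both ages were Ptpn1, a phosphatase that acts on PDGF receptors (3.18-fold in aged and 2.84-fold in young mice), Cbl, a ubiquitin ligase for activated receptors (log2 differences 1.03 and 0.73), the adaptor Grb2 (1.33 and 0.71) and Stat3 (0.71 and 0.74). Sos1, the Ras exchange factor that Grb2 recruits, was 2.16-fold lower in aged and 1.77-fold lower in young injured cords, and the catalytic subunit gene Pik3ca was lower too (−0.54 and −0.51). All 6 tested genes that PDGF induces in mouse fibroblasts in culture, Ier2, Myc, Cxcl1, Fos, Ccl2 and Egr1, were higher at both ages, and 5 of them in aged mice without aged injured replicate 1. Inflammatory and other growth signals induce the same genes.

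**Figure D3:**
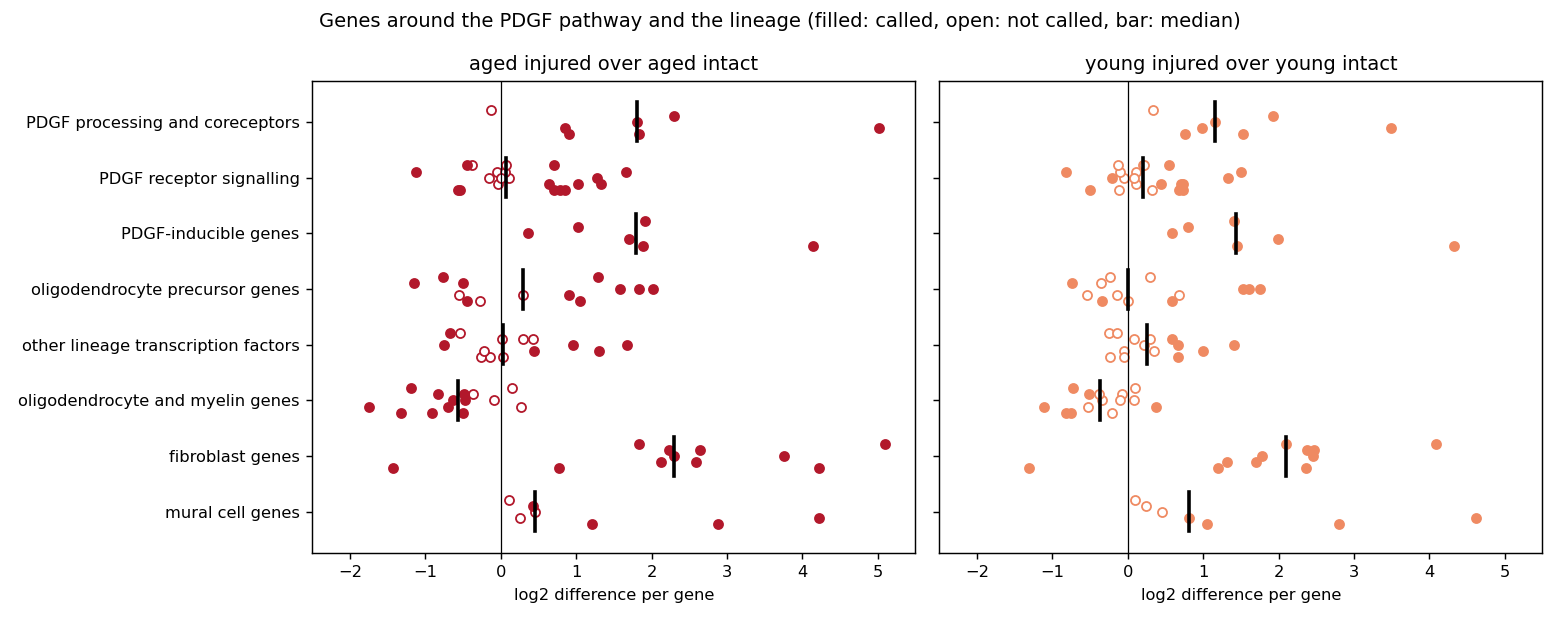
Log2 differences of the tested genes of 8 lists, aged injured over aged intact (left panel) and young injured over young intact (right panel). Each point is 1 gene, filled where called, and the bar is the list's median, which for receptor signalling was 0.07 in aged and 0.20 in young mice. Values of genes with an intact or injured mean under 50 are fitted values.

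Between aged injured and young injured cords none of the 10 genes was called by limma, where 4.41% of all genes tested were called higher and 4.58% lower. The 2 lowest p-values among the 10 were those of Pdgfd (log2 difference −0.57, 95% interval −0.94 to −0.20, unadjusted p = 0.00578, adjusted p = 0.0560) and Olig1 (−0.55, −1.06 to −0.04, unadjusted p = 0.0359, adjusted p = 0.138), both lower in aged injured cords. The arrays of these 2 genes did not overlap, as was so for 14.1% of all genes with aged injured arrays lower and for 14.0% with aged injured arrays higher. The dimmer Pdgfd probe was also lower on all aged injured than on all young injured arrays. The Pdgfd difference was −0.41 (adjusted p = 0.129) without aged injured replicate 1 and −0.76 (adjusted p = 0.00629) without aged injured replicate 2, and that of Olig1 was −0.18 without aged injured replicate 1. For the receptors the intervals were −0.51 to 0.14 for Pdgfra and −0.60 to 0.44 for Pdgfrb, and for Pdgfc −0.33 to 0.45. By the cutoffs of the study's methods, a group mean over 50 and a ratio of means over 2, none of the 10 genes passed, where 1.39% of 9834 genes were higher and 0.620% lower in aged injured cords.

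Around the pathway a few genes were called between the ages after injury. Plau was 3.71-fold higher in aged injured than in young injured cords (log2 difference 1.87 ± 0.27, limma adjusted p = 0.00719), Grb2 had a log2 difference of 0.65 (adjusted p = 0.0140), Cbl of 0.36 (0.0349) and Fos of 0.56 (0.0260). Pcsk5 was 1.53-fold lower (adjusted p = 0.0432) and Gab1, a docking protein of receptor signalling, was 1.41-fold lower (0.0439) in aged injured cords. Grb2 ranged over 536.8 to 774.4 in aged injured against 384.4 to 408.4 in young injured cords, with no overlap. Of the myelin markers Mal was 1.89-fold, Fa2h 1.62-fold and Cryab 1.39-fold lower in aged injured cords (adjusted p = 0.0139, 0.0307 and 0.0377). Of the other lineage transcription factors Id4 was lower (log2 difference −0.77, limma adjusted p = 0.0280) and Id2 higher (0.35, adjusted p = 0.0436) in aged injured cords. No precursor gene was called.

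The calls between the injured groups depended on the arrays fitted. Leaving out aged injured replicate 1 ended the calls of Cbl (log2 difference 0.27, limma adjusted p = 0.0780), Pcsk5 (−0.53, adjusted p = 0.0978) and Id2 (0.29, adjusted p = 0.1003). Plau, Grb2, Fos, Gab1, Id4 and the 3 myelin markers were still called without it. Among these the differences were −0.32 for Gab1, −0.55 for Id4, −0.49 for Fa2h and −0.31 for Cryab. With only the 6 injured arrays fitted limma called 0 of the 10511 genes (lowest adjusted p = 0.0526), and 1974 (18.8%) had an unadjusted p under 0.05. Markers of other cells moved in the same comparison. Of 8 astrocyte markers 5 were lower in aged injured cords (median log2 difference −0.57, against −0.04 over all genes), and their sum was 7910.2 to 12750.2 in aged injured and 15631.9 to 17547.2 in young injured cords. Of 7 proliferation genes 6 were higher (median 1.08), or 4 without aged injured replicate 1, and they summed to 3472.6 to 5908.1 in aged injured and 2210.4 to 2650.3 in young injured cords. Of 10 macrophage and microglia markers 2 were higher, or 1 without that array. The part of these cells in the differences between the ages was not tested.

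Between aged intact and young intact cords none of the 10 genes was called by limma, where 0.542% of all genes tested were called higher and 0.266% lower. Among the 10 Pdgfb had the lowest unadjusted p (limma, 0.0315), with both means under 50. The arrays of 5 genes did not overlap, with Pdgfb, under 50 in both groups, higher and Pdgfc, Pdgfra, Olig1 and Olig2 lower in aged intact cords, where 14.3% of all genes tested were so separated upwards and 11.2% downwards. Olig1 ranged over 1206.1 to 1249.2 in aged intact against 1536.8 to 1635.1 in young intact cords (log2 difference −0.37, limma adjusted p = 0.687), and Olig2 over 125.1 to 163.6 against 187.7 to 206.6 (−0.46, adjusted p = 0.536). The fit over 12 arrays takes its spread from the injured arrays as well, and with only the 6 intact arrays both were called lower in aged cords (adjusted p = 7.00e-04 and 0.0226). Without aged injured replicate 1 Olig1 was called (adjusted p = 0.00669) and Olig2 was not (0.115). In the same setting 7 of 14 myelin markers were lower in aged intact cords, against none with all 12 arrays.

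Whether the difference with injury depended on age was tested by the interaction of the 2 factors. None of the 10 genes was called by limma, where 0.133% of all genes tested were called higher and 0.304% lower. Among the 10 Pdgfd had the lowest p (log2 −0.66, 95% interval −1.18 to −0.14, limma unadjusted p = 0.0174, adjusted p = 0.217). Without aged injured replicate 2 the Pdgfd interaction was −0.85 and was called (adjusted p = 0.0356). The receptors had intervals of −0.49 to 0.42 for Pdgfra and −0.83 to 0.64 for Pdgfrb. The 4 comparisons share arrays, so their values for a gene are not independent.

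**Figure D4:**
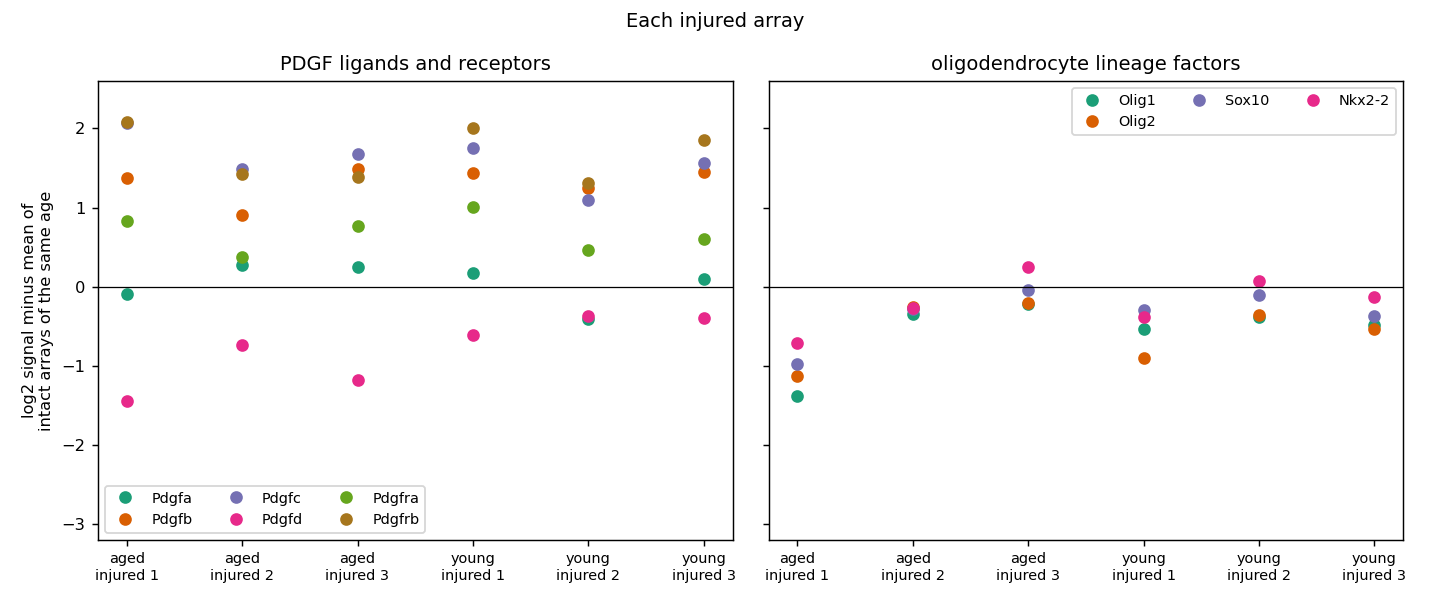
Log2 signal of the 10 genes on each of the 6 injured arrays, aged injured left and young injured right, minus the mean of the intact arrays of the same age. PDGF ligands and receptors are in the left panel and lineage factors in the right panel. Aged injured replicate 1 had the lowest Olig1, Olig2, Sox10, Nkx2-2 and Pdgfd signals and the highest Pdgfc and Pdgfrb signals of the 6 arrays.

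The injured arrays differed among themselves in a way that several of the genes shared. Aged injured replicate 1 had the lowest signal of all 4 lineage factors and of Pdgfd, and the highest of Pdgfc and Pdgfrb, among the 6 injured arrays. Young injured replicate 2 was the opposite in part, with the highest Olig1, Olig2 and Pdgfd signals and the lowest Pdgfb, Pdgfc and Pdgfrb signals. It also had the lowest Pdgfa signal (266.5), but Pdgfa was low on aged injured replicate 1 as well (281.0). The sum of the fibroblast markers was 18879.6 on the aged and 14619.9 on the young array just named, and that of the neuron markers 1534 on the aged and 10402.3 on the young one. How much lesion each segment held was not tested.

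Genes with the most similar pattern were sought by Pearson's r of log2 signals over the 12 arrays, which takes in the step between injured and intact cords. The closest were Adam12, a metalloproteinase gene, for Pdgfc (r = 0.996), Egfr for Pdgfra (0.988), Rell1 for Pdgfrb (0.990), Fgd2 for Pdgfb (0.988) and Nadk2 for Pdgfd (0.980). Among the lineage factors they were Cmtm5 for Olig1 (0.983), Sh3gl3 for Olig2 (0.974), Prkca for Sox10 (0.966) and Gm19935 for Nkx2-2 (0.876), for which the precursor gene Lhfpl3 came next (0.850). Pdgfa, which did not follow injury, had no neighbour above Aamp (0.810). Abhd17b was among the 5 nearest genes of both Olig1 (0.975) and Olig2 (0.965).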

How the data were processed

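Total RNA of 12 cord segments, 3 per group, was hybridised to Affymetrix mouse genome arrays. The authors deposited MAS5 signals, linear intensities scaled per array to a common trimmed mean (2% trimmed at each end); the MAS5 settings are not given in the sources used here. Probe genes came from the platform annotation: 34958 probes had 1 gene, 932 several and 9211 none, and only the first were used. Log2 signals were fitted with limma 3.58.1 (lmFit, contrasts, eBayes with a trend) in R 4.3.3, with all 4 groups in 1 model, and the script was tested on simulated data. Group labels gave 3 samples each, 1 array per sample, and the small number of arrays limits precision. An exact permutation test of 3 against 3 cannot go below p = 0.1 and was not used.

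The members and lists were chosen with earlier results of these data known. Named are the 10 members and, per list and comparison, at most the 3 called genes of smallest adjusted p in each direction, and further list genes were chosen after their values were seen. Alternatives varied the log2 offset, normalization, filter, trend, probe rule, replicate block, arrays compared and each array left out. Of the list genes, 19 had no group mean above 50 and were not tested, and 12 more were not analysed here.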

Additional observations from a re-analysis of the deposited data

Results flagged for a closer look

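Col1a1, a fibrillar collagen of fibroblasts, was at least 8.55-fold higher after injury in aged and 5.27-fold higher in young mice. Its fitted interaction of 1.86 on the log2 scale (limma, adjusted p = 0.0161) rests on an aged intact mean of 22.6, under the cutoff of 50, and its size is not a measured difference. Among macrophage and microglia markers the injury difference was smaller in aged mice for Mpeg1 (interaction −1.19, adjusted p = 0.00959), Aif1 (−1.06, 0.0176), Ctss (−0.85, 0.0176) and C1qa (−0.78, 0.0376). Of the 10 such markers 8 were already called higher in aged intact than in young intact cords. Mpeg1 ranged over 342 to 419.7 in aged intact against 143.6 to 144.4 in young intact cords. After injury it was 5072.9 to 5938.3 in aged and 4064.6 to 4940.1 in young mice, so the injured level was not lower in aged cords. The astrocyte gap junction gene Gjb6 had log2 differences of −1.40 in aged and −0.33 in young mice (interaction −1.07, adjusted p = 0.0176). These genes are markers given beside the PDGF and lineage genes, and none of the 10 was among them.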

How the results depend on the processing

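Of 50 results (10 genes in 5 contrasts), 38 kept their call under the 19 alternatives run, 3 lost a call and 9 gained one in at least 1 of them, and no called value changed direction. Pdgfb, Pdgfc, Pdgfra and Pdgfrb kept their injury calls at both ages throughout. Between aged injured and young injured cords the count of called members was 0, and it was 1 (Pdgfd, lower) with log2(signal + 16) and 0 to 1 with an array left out. Between aged intact and young intact cords it was 0, and it was 2 (Olig1 and Olig2, lower) with only the groups compared and 0 to 1 with an array left out. For the interaction it was 0, and 0 to 1 with an array left out. The injury counts of 6 stayed at 5 to 9 in aged and 4 to 8 in young mice. Over all genes, 945 were called between aged injured and young injured cords, 291 to 3064 with an array left out, 565 with all probes averaged, 198 by the cutoffs of the methods and 0 with only those groups. Between intact cords the 85 calls became 494 with only those groups, 33 to 215 with an array left out and 55 with all probes averaged, and the 46 interaction calls became 7 to 531 with an array left out, 27 without the trend and 22 with no filter. The cause was not tested. With the replicate number as a block 7 members were called in aged injured over aged intact cords (Olig2 in addition, adjusted p = 0.0373), 6 in young mice and 0 in the other 3 contrasts, and of all genes 22 had an interaction call. Same-numbered arrays deviated together in 2 of 18 pairs (r over 0.1, mean 0.07), both between aged injured and young injured arrays (replicate 1, r = 0.60, and replicate 2, 0.67). Replicate 3 of these groups had r = 0.01, and differently numbered arrays of the 2 injured groups had r of −0.63 to 0.32. An array correlated best with its own number in 12 of 36 comparisons. The numbers were not taken to pair samples, and what the same-numbered injured arrays share was not tested. List counts without aged injured replicate 1, and list genes between the injured groups with only those arrays, were added after seeing the data. Signals near 50, as for Nkx2-2 and Pdgfb, and 3 arrays a group limit small differences.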
